A study of Mus musculus with 35 samples.

Results

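Old mouse livers regenerating after partial hepatectomy (PH), the removal of part of the liver, were compared between 38 h and 24 h after surgery. The comparison rests on 3 arrays at 38 h and 3 arrays at 24 h, 6 of the 35 arrays of the study, picked by their labels for age, operation and time. No measured value entered that choice, and all 34945 probe sets with 1 gene symbol were tested. Both groups came from male CB6F1 hybrid mice aged 25 to 27 months, supplied by the National Institute on Aging, that lost 70% of the liver mass under avertin and isoflurane anaesthesia. Beside them stand old livers 38 h and 24 h after sham surgery (liver handled, nothing removed; 2 arrays each), old livers 48 h after PH (3 arrays), untreated old livers (3 arrays), and young livers 38 h and 24 h after PH (3 arrays each). The young mice were aged 5 to 6 months and came from the Jackson Laboratories, so age and supplier cannot be told apart. The labels do not say that arrays of a group are separate animals, and the p-values speak only of spread among these samples, which may be technical. Levels are log2 RMA signals, where a difference of 1 is 2-fold, and a gene's value is that of its brightest probe set on average.

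After PH the remaining hepatocytes, which rarely divide in the intact liver, pass through G1, copy their DNA and divide until the lost mass is restored. Cyclin D1 marks the passage through G1, E2F factors switch on genes of DNA replication, and B-Myb and FoxM1 switch on genes of mitosis, while the cell cycle inhibitor p21 (Cdkn1a) holds cells back. The regenerating liver also takes up fat for a time and lowers part of its metabolic programme, and in old rodents division is known to come later and in fewer cells. As 38 h and 24 h lie 14 h apart on the clock, genes with a daily rhythm can differ between the groups as well.

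The 6 arrays did not fall apart by time. The arrays labelled 38 h replicate 3 and 24 h replicate 1 were each other's closest match among all 35 arrays (r = 0.9931 over genes), and only 8 of 18193 genes differed by over 2-fold between them. By the same count 38 h replicate 3 differed from 38 h replicates 1 and 2 in 1699 and 1685 genes, whereas replicates 1 and 2 differed from each other in 89. Among the 24 h arrays, replicate 1 differed from replicates 2 and 3 in 848 and 1601 genes, and those 2 from each other in 320. The array closest to 24 h replicate 3 was young PH 24 h replicate 1 (r = 0.9886). Within the other groups of the study, 23 pairs of arrays had r from 0.9872 to 0.9969. The estimated variance of the 38 h arrays was 3.01 times, and that of the 24 h arrays 2.56 times, that of the other groups, and these factors entered the standard errors. Results are therefore given with all 6 arrays, without 38 h replicate 3, and, for the counts, without both close arrays. Leaving out each array in turn was planned, but giving gene values on the fit without 38 h replicate 3, and leaving out both close arrays, were chosen after seeing the data.

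**Figure D1:**
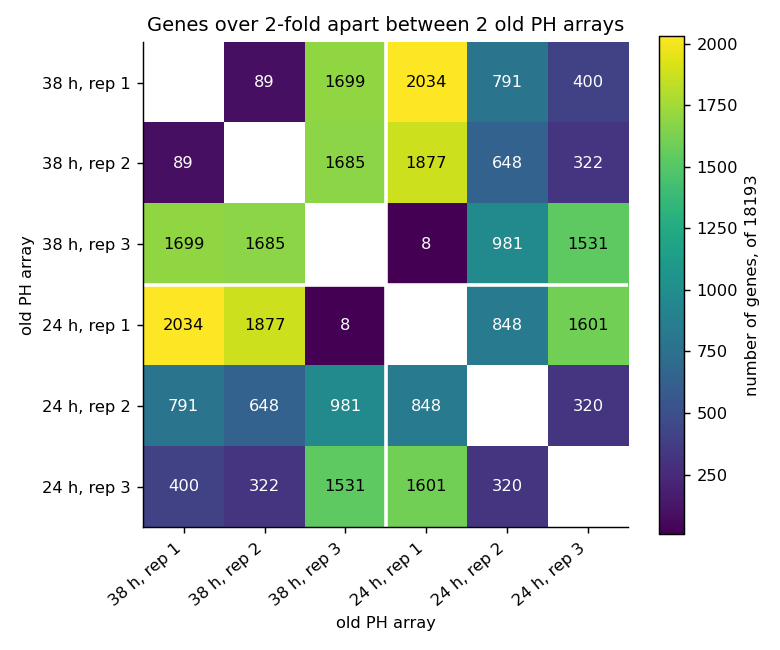
Number of genes, of 18193, that differ by over 2-fold between each pair of the 6 old PH arrays, with the 38 h arrays above and left of the 24 h arrays. 38 h replicate 3 and 24 h replicate 1 differ in 8 genes, while 38 h replicates 1 and 3 differ in 1699.

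With all 6 arrays, 0 of 34945 probe sets (0%) passed an adjusted p under 0.05 in limma, and the smallest adjusted p was 0.4013. At an unadjusted p under 0.05 there were 2368 probe sets (6.78%). With the same variance for every array, 915 passed (310 higher and 605 lower at 38 h). Leaving out 38 h replicate 3 alone gave 2435, and leaving out any other of the 6 arrays gave 0. Counted by gene, 471 of 18193 genes (2.59%) then rose and 871 (4.79%) fell. Without 38 h replicate 3 and 24 h replicate 1, 283 genes (1.56%) rose and 440 (2.42%) fell. With no array left out, all 3 arrays at 38 h lay above all 3 at 24 h for 2245 genes (12.3%) and below them for 886 (4.87%). In what follows, a gene is said to rise or fall only where it passed without 38 h replicate 3, and none of these calls holds with all 6 arrays. That array deviated from its group, but so did 24 h replicate 1, which this fit keeps. The fit was chosen after seeing the data, and of the fits without 1 of the 6 arrays it alone gave calls. Setting 38 h replicate 3 aside narrows the spread left at 38 h. These standard errors and adjusted p-values are therefore conditional on that choice and describe the remaining arrays.

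Genes of DNA replication and mitosis were high in 38 h replicates 1 and 2 and at the 24 h level in 38 h replicate 3. The mean log2 level of 34 replication genes, relative to untreated old livers, was 1.41, 0.97 and 0.01 at 38 h, against 0.04, -0.25 and 0.17 at 24 h. For 43 mitotic genes this score was 2.09, 0.85 and -0.04 at 38 h, against -0.12, -0.12 and 0.10 at 24 h. At 48 h the mitotic score averaged 2.88 ± 0.14 (SD, n = 3) in old livers, above every 38 h array, and sham livers stayed between -0.26 and -0.02 on both scores at 38 h and 24 h. Without 38 h replicate 3, 21 of the 34 replication genes and 30 of the 43 mitotic genes rose and 0 fell, where 2.59% and 4.79% of all genes did. With both close arrays left out 24 and 28 rose, where 1.56% of all genes did. The median difference over members with all arrays was 0.81 for replication and 0.99 for mitosis, beside 0.04 over all genes.

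**Figure D2:**
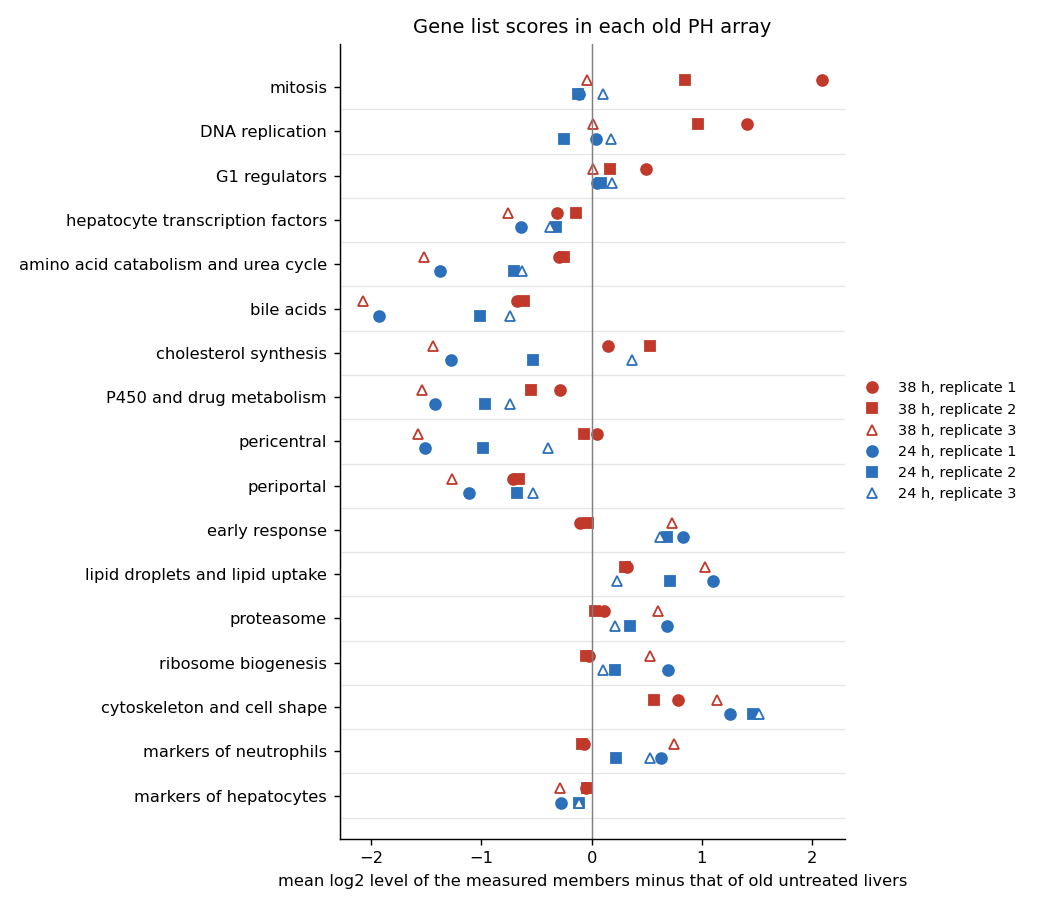
Scores of 17 gene lists in each old PH array: the horizontal axis is the mean log2 level of the measured members minus that of untreated old livers, with 38 h arrays in red above 24 h arrays in blue and 1 symbol per replicate. The mitosis score is 2.09 and 0.85 in 38 h replicates 1 and 2 and -0.04 in 38 h replicate 3, which lies next to 24 h replicate 1 in most lists.

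The helicase that opens DNA for replication is built of Mcm subunits. Mcm5 had a log2 level of 10.83, 10.15 and 7.30 in the 38 h livers, against 7.64, 7.44 and 8.61 in the 24 h livers, and Mcm6 had 11.06, 10.36 and 7.75 at 38 h, against 7.997, 7.63 and 8.87 at 24 h. In both genes 38 h replicates 1 and 2 exceeded every 24 h array and 38 h replicate 3 lay within the 24 h range or below it. With all arrays the differences were 1.53 ± 0.66 (adjusted p = 0.724) for Mcm5 and 1.55 ± 0.62 (adjusted p = 0.724) for Mcm6 (± SE). Without 38 h replicate 3, Mcm5 rose by 2.60 ± 0.49 (adjusted p = 0.00484), Mcm6 by 2.54 ± 0.46 (adjusted p = 0.00428) and Prim1, the primase subunit that starts each new strand, by 1.99 ± 0.37 (adjusted p = 0.00469). Mcm10, which helps to fire replication origins, stood at 10.94, 11.11 and 8.88 at 38 h, against 8.62, 8.78 and 10.14 at 24 h, all below the mean of 11.41 in untreated old livers, and rose by 1.84 ± 0.43 on the same terms (adjusted p = 0.013). The sliding clamp Pcna, at 12.72, 11.96 and 11.50 at 38 h, against 11.54, 11.09 and 11.46 at 24 h, rose by 0.98 ± 0.30 (adjusted p = 0.0472). Rrm2, a subunit of ribonucleotide reductase, departed from this pattern: 11.30, 9.93 and 10.37 at 38 h, against 10.56, 7.73 and 8.07 at 24 h. Here all 38 h arrays and 24 h replicate 1 were high, 24 h replicates 2 and 3 were low, and the difference of 1.74 ± 0.71 did not pass with or without 38 h replicate 3 (adjusted p = 0.724 and 0.0997).

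Birc5 encodes survivin, a part of the chromosomal passenger complex that guides chromosome segregation. Its log2 level was 10.23, 7.85 and 5.50 in the 38 h livers, against 5.60, 5.63 and 5.95 in the 24 h livers, with a mean of 11.19 ± 0.02 (SD, n = 3) at 48 h. It rose by 3.31 ± 0.66 (adjusted p = 0.00618) without 38 h replicate 3, against 2.13 ± 0.77 (adjusted p = 0.709) with it. Cdk1, the kinase that drives entry into mitosis, stood at 11.33, 9.47 and 8.19 at 38 h, against 7.66, 7.53 and 8.25 at 24 h, and Top2a, which untangles chromosomes, at 9.69, 8.26 and 6.32 at 38 h, against 5.82, 5.85 and 7.0 at 24 h. Of these levels, 38 h replicate 1 was the highest, replicate 2 in between, and replicate 3 lay within the 24 h range for Cdk1 and Top2a and just below it for Birc5. On the same terms as Birc5, Cdk1 rose by 2.58 ± 0.48 (adjusted p = 0.00469), Top2a by 2.75 ± 0.51 (adjusted p = 0.00476), Ube2c, which marks mitotic proteins for breakdown, by 2.87 ± 0.60 (adjusted p = 0.00749) and the proliferation marker Mki67 by 2.80 ± 0.66 (adjusted p = 0.0138). Foxm1 itself, at 8.90, 8.69 and 8.38 at 38 h, against 8.37, 8.09 and 8.54 at 24 h, did not pass (0.47 ± 0.16, adjusted p = 0.0771). Ccna2, the cyclin of S phase and G2, rose by 1.59 ± 0.39 (adjusted p = 0.0165), and Ccne2, the cyclin of S phase entry, by 1.66 ± 0.39 (adjusted p = 0.0123).

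**Figure D3:**
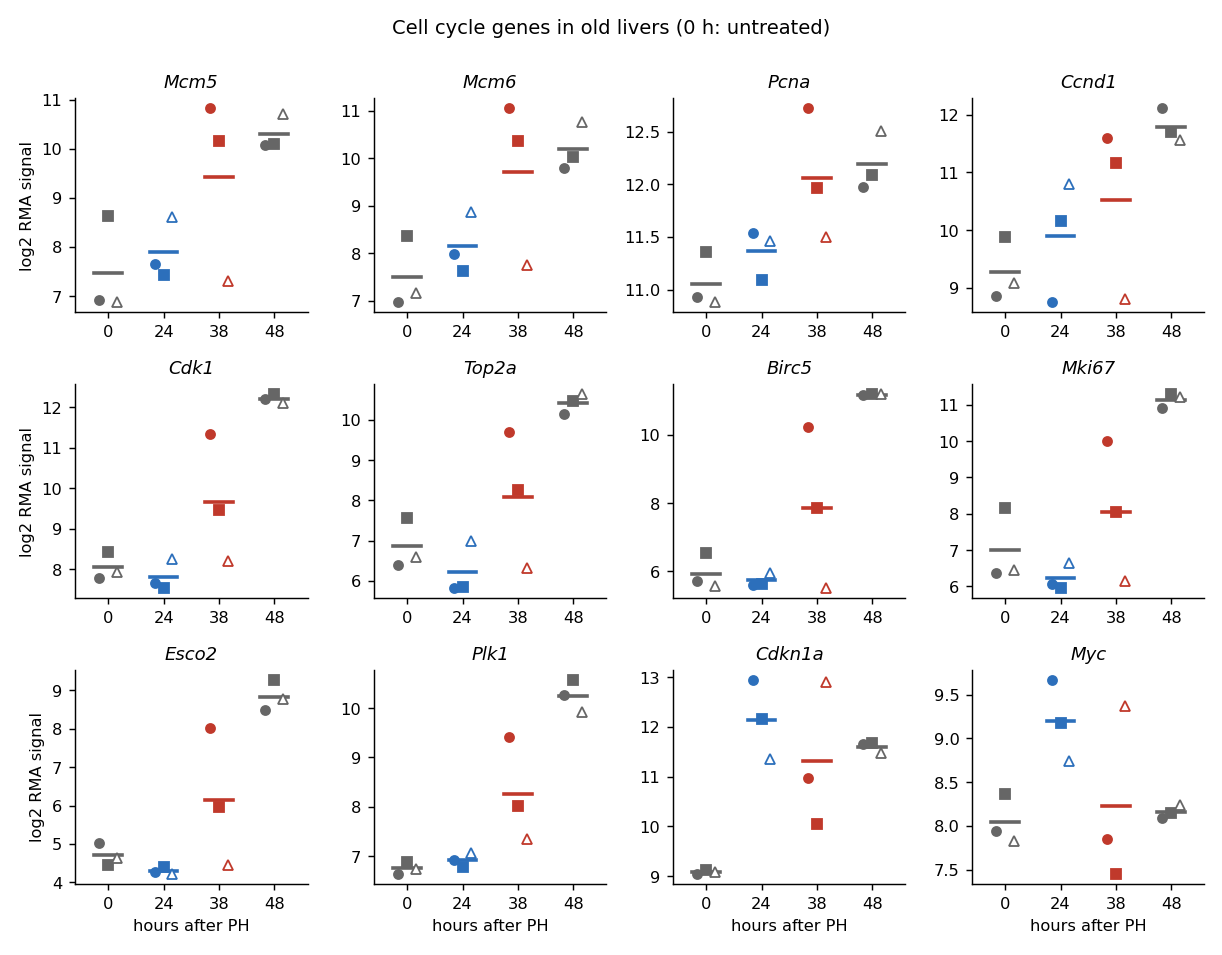
Log2 RMA signal of 12 cell cycle genes in old livers at 0 h (untreated), 24 h, 38 h and 48 h after PH, 3 arrays per time with 1 symbol per replicate number and a bar at the group mean. 38 h replicate 3 (open triangle) lies at or near the 24 h level for Mcm5, Cdk1 and Birc5 and at the top of the group for Cdkn1a and Myc.

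A few mitotic genes were higher in all 3 arrays at 38 h, replicate 3 included. This held for 11 of 43 mitotic genes and 4 of 34 replication genes, where 12.3% of all genes were so placed, a share the replication genes did not exceed. The 10 largest such differences over all genes with an unadjusted p under 0.05 were in Esco2, Tcf19, Cdca5, Anln, Plk1, Nusap1, Cdc20, Ttk, Aurka and Ckap2. Esco2, which locks the cohesin rings that hold sister chromatids together, had 8.02, 5.95 and 4.45 in the 38 h livers, against 4.27, 4.41 and 4.21 in the 24 h livers, a difference of 1.85 ± 0.66 (adjusted p = 0.709). Plk1, a kinase of mitotic entry and exit, had 9.42, 8.02 and 7.35 at 38 h, against 6.91, 6.79 and 7.06 at 24 h, a difference of 1.34 ± 0.53 (adjusted p = 0.721). In both genes replicate 3 stood above the highest 24 h array by a small margin, 4.45 against 4.41 and 7.35 against 7.06. The other 8 differed by 1.00 (Ckap2, a spindle protein) to 1.53 (Tcf19), among them Ttk of the spindle checkpoint, Aurka of the spindle poles and Anln of the cleavage furrow, and none passed.

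Promoters show which letters the replication and mitosis genes share upstream of their starts, so stretches of 4 genes described above are given, from 160 bases to 1 base before the start. They are RefSeq sequences of the GRCm38.p6 build, in lower case, with matches on either strand to the motifs of the gene's own list in capitals. Matches to motifs of other lists stay in lower case, such as CCAAT in Mcm5 and TTTCGCGC in Cdk1. How often a motif occurs in the other lists was not counted. For Mcm5 and Mcm6 the capitals mark TTTGGCGC or TTTCGCGC, letters bound by E2F factors, and a match on one strand can overlap a match on the other. For Cdk1 and Top2a they mark CCAAT, bound by NF-Y, and TTTGAA, the core of the cell cycle homology region, bound by the MuvB complex with B-Myb or FoxM1. The Mcm5 stretch lies at chr8:75109349-75109508, plus strand, with 2 matches. The Mcm6 stretch lies at chr1:128359706-128359865, minus strand, with 3 matches. The Cdk1 stretch lies at chr10:69352913-69353072, minus strand, with 2 matches to each motif. The Top2a stretch lies at chr11:99024190-99024349, minus strand, with 4 matches to CCAAT and 1 to TTTGAA.
Mcm5: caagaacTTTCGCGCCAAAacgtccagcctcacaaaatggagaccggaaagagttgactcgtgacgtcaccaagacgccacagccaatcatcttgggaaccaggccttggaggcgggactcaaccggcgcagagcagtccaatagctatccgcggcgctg
Mcm6: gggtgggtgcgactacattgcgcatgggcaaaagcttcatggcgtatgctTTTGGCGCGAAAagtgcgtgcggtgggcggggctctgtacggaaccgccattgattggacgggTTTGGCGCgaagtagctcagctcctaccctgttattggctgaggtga
Cdk1: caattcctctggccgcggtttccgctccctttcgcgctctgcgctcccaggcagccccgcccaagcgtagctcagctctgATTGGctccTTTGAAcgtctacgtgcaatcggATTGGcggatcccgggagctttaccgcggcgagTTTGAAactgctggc
Top2a: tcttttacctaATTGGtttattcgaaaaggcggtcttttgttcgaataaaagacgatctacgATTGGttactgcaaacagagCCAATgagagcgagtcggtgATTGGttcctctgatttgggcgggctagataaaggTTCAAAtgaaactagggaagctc
In windows from 250 bases before to 50 after the start, the E2F letters were found in 10 of 33 promoters of 28 replication genes (30.3%), beside 0.813% of all 32851 promoters. CCAAT and TTTGAA were found together in 26 of 39 promoters of 37 mitotic genes (66.7%), beside 6.95% of all promoters. CCAAT alone was in 76.9% of those 39, beside 37.4% of all, and TTTGAA alone in 74.4%, beside 17.9%. A match is a description of letters, not evidence of binding in these livers.

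Regulators of G1 moved in both directions. Ccnd1 (cyclin D1) had 11.60, 11.16 and 8.80 in the 38 h livers, against 8.75, 10.16 and 10.79 in the 24 h livers, so that 38 h replicate 3 and 24 h replicate 1 were the lowest 2 and the other 24 h arrays stood near the 38 h arrays. Without 38 h replicate 3 it rose by 1.48 ± 0.40 (adjusted p = 0.0283), and without both close arrays it did not pass (adjusted p = 0.121). Cdkn1a, which encodes the inhibitor p21, had 10.97, 10.04 and 12.90 at 38 h, against 12.95, 12.15 and 11.35 at 24 h, all above the untreated mean of 9.08. It fell by 1.64 ± 0.29 (adjusted p = 0.00428), whereas with all 6 arrays the difference was -0.84 ± 0.43 (adjusted p = 0.735). Myc, a transcription factor of growth, had 7.85, 7.45 and 9.37 at 38 h, against 9.67, 9.18 and 8.74 at 24 h and fell by 1.54 ± 0.29 (adjusted p = 0.00484). In the list of 20 G1 regulators, 6 rose, with E2f8 (a repressor of the E2F family) and Cdkn2c (the inhibitor p18) at 1.72 ± 0.53 and 1.69 ± 0.46, and 2 fell, where 2.59% and 4.79% of all genes did. Without both close arrays 3 rose and 2 fell, where 1.56% and 2.42% of all genes did, and Ccnd1 and E2f8 did not pass. Of 18 p53 targets Cdkn1a alone passed.

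Several lists of hepatocyte metabolism were low in 38 h replicate 3 and in 24 h replicate 1, and closer to the untreated level in 38 h replicates 1 and 2. The score of 24 genes of amino acid breakdown and the urea cycle was -0.29, -0.25 and -1.52 at 38 h, against -1.37, -0.71 and -0.63 at 24 h, and that of 26 genes of drug metabolism was -0.29, -0.55 and -1.54 at 38 h, against -1.42, -0.97 and -0.74 at 24 h. For 16 pericentral genes, active around the central vein, it was 0.04, -0.07 and -1.57 at 38 h, against -1.51, -0.98 and -0.39 at 24 h. Other lists did not set 38 h replicates 1 and 2 apart from 24 h replicates 2 and 3. The score of 13 periportal genes was -0.72, -0.66 and -1.27 at 38 h, against -1.11, -0.68 and -0.53 at 24 h. That of 19 glucose production genes was -0.48, -0.31 and -1.13 at 38 h, against -1.03, -0.55 and -0.34 at 24 h. Of the amino acid list 11 rose and 0 fell without 38 h replicate 3, and of the drug metabolism, pericentral and bile acid lists 5 of 26, 6 of 16 and 5 of 20 did, where 2.59% of all genes rose. Without both close arrays these counts were 7, 2, 2 and 0, where 1.56% of all genes rose. In that fit 1 bile acid gene fell, where 2.42% of all genes did. With all arrays the list medians lay between 0.12 and 0.44.

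Hgd, which opens the ring of homogentisate in tyrosine breakdown, had 13.26, 13.12 and 10.05 in the 38 h livers, against 10.27, 11.94 and 12.73 in the 24 h livers. It rose by 1.54 ± 0.31 (adjusted p = 0.00634), and Hpd, an earlier step of that pathway, by 1.36 ± 0.24 (adjusted p = 0.00428). Oat, an enzyme of ornithine breakdown, rose by 1.40 ± 0.29 (adjusted p = 0.00704) and the flavin monooxygenase Fmo1 by 1.99 ± 0.34 (adjusted p = 0.00428). Slco1b2, which takes up bile acids and drugs from blood, had 12.47, 12.58 and 6.45 at 38 h, against 6.40, 10.99 and 12.47 at 24 h, so that it was lower in 38 h replicate 3 and 24 h replicate 1 than in any other of the 6 arrays. It rose by 2.57 ± 0.72 (adjusted p = 0.0306), which did not pass without both close arrays (adjusted p = 0.192). Akr1c6, a steroid dehydrogenase, rose by 1.98 ± 0.46 (adjusted p = 0.0129) with the same pattern of arrays, 14.12, 14.01 and 9.80 at 38 h, against 9.74, 12.42 and 14.09 at 24 h. Cyp7a1, the rate-limiting enzyme of bile acid synthesis, had 8.68, 9.0 and 7.76 at 38 h, against 8.11, 8.44 and 7.77 at 24 h, and Cyp8b1, needed for cholic acid, had 9.62, 10.09 and 8.35 at 38 h, against 8.59, 8.20 and 10.54 at 24 h, both overlapping and not passing. Lect2, a secreted pericentral protein, rose by 1.44 ± 0.26 (adjusted p = 0.00428) and the growth hormone receptor Ghr by 1.17 ± 0.35 (adjusted p = 0.0428). Akr1c6 and Ghr did not pass without both close arrays.

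Hepatocyte identity factors showed smaller differences. Cebpa, which restrains hepatocyte division in addition to driving metabolic genes, had 12.18, 12.65 and 11.79 in the 38 h livers, against 11.58, 11.43 and 12.07 in the 24 h livers and rose by 0.73 ± 0.20 (adjusted p = 0.026). Hnf4a stood at 13.04, 12.96 and 12.82 at 38 h, against 12.80, 13.07 and 12.83 at 24 h (0.10 ± 0.11, adjusted p = 0.644) and Cebpb at 12.53, 12.49 and 12.68 at 38 h, against 12.58, 12.36 and 12.63 at 24 h, and neither passed. In this list 2 of 20 rose, Cebpa and the oxysterol receptor Nr1h3, where 2.59% of all genes did. Nr1h3 did not pass without both close arrays. Alb (albumin) was at 14.86, 14.84 and 14.85 at 38 h, against 14.85, 14.80 and 14.88 at 24 h, and the score of 10 hepatocyte markers was -0.05, -0.04 and -0.29 at 38 h, against -0.27, -0.11 and -0.11 at 24 h. The 2 lowest scores were those of the close arrays. As these are whole livers, fewer cells of a type and less RNA per cell cannot be told apart. The gluconeogenic genes Pck1, G6pc and Tat did not pass, with differences of -0.11 ± 0.27, 0.00 ± 0.43 and 0.14 ± 0.17 without 38 h replicate 3.

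Genes of lipid storage had the highest score in 38 h replicate 3 and 24 h replicate 1. For 24 genes of lipid droplets and lipid uptake it was 0.32, 0.30 and 1.03 at 38 h, against 1.10, 0.71 and 0.23 at 24 h. Pdk4, the kinase that shifts cells from glucose to fat as fuel, had 7.85, 7.04 and 12.36 in the 38 h livers, against 12.46, 11.26 and 9.24 in the 24 h livers, and a mean of 8.12 in untreated old livers; 24 h replicate 3 lay between the extremes. It fell by 3.55 ± 0.75 (adjusted p = 0.00798), while with all arrays the difference was -1.91 ± 1.03 (adjusted p = 0.757). Cidec, which enlarges lipid droplets, had 7.55, 7.46 and 12.25 at 38 h, against 12.45, 10.45 and 8.80 at 24 h and fell by 3.06 ± 0.93 (adjusted p = 0.0455). The droplet coat protein Plin5 (-1.22 ± 0.28, adjusted p = 0.0116) and Hilpda, which slows the breakdown of stored fat (-2.04 ± 0.50, adjusted p = 0.0159), fell as well. Of that list 4 genes fell and 2 rose, where 4.79% and 2.59% of all genes did. Without both close arrays 1 fell and 0 rose, where 2.42% and 1.56% of all genes did, and Cidec and Hilpda did not pass.

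The early response list, genes induced within minutes of a stimulus, scored -0.10, -0.03 and 0.73 at 38 h, against 0.83, 0.69 and 0.62 at 24 h. Of its 21 genes 3 fell: the stress gene Ier3 (-3.16 ± 0.76, adjusted p = 0.0147), the phosphatase Dusp1 (-1.83 ± 0.48, adjusted p = 0.0238) and the transcription factor Klf4 (-1.67 ± 0.49, adjusted p = 0.0396), where 4.79% of all genes fell. Without both close arrays 1 fell, where 2.42% of all genes did, and Dusp1 and Klf4 did not pass. Ier3 had 7.07, 7.61 and 12.04 at 38 h, against 12.32, 9.68 and 9.49 at 24 h, lowest in 38 h replicates 1 and 2. Fos at 9.75, 9.36 and 8.92 at 38 h, against 9.02, 10.30 and 9.93 at 24 h and Egr1 at 12.24, 12.16 and 11.35 at 38 h, against 11.50, 12.85 and 12.23 at 24 h overlapped between the times and did not pass. Jun, Atf3, Zfp36 and Ccn1 were lower in all 3 arrays at 38 h, 4 of 21 beside 4.87% of all genes. The motif TGACGTCA, bound by CREB and ATF factors, was in only 2 of 21 promoters of this list (9.52%), beside 1.79% of all promoters. Among chemokines, Cxcl3, which draws neutrophils, had 4.62, 4.58 and 9.24 in the 38 h livers, against 10.01, 6.42 and 9.50 in the 24 h livers. Cxcl3 (-4.04 ± 0.48, adjusted p = 0.000186) and Cxcl2 (-3.27 ± 0.82, adjusted p = 0.0181) fell, 2 of 21 inflammatory genes, beside 4.79% of all genes. Without both close arrays 4 of the 21 fell, beside 2.42% of all genes. The neutrophil marker score was -0.07, -0.09 and 0.75 at 38 h, against 0.63, 0.22 and 0.53 at 24 h, with 1 of 12 markers (Mmp9) falling. The median difference over the 12 markers was 0.01 with all arrays, -0.23 without 38 h replicate 3 and -0.04 without both close arrays. In all 3 arrays at 38 h, 2 of the 12 markers were higher and 0 lower, beside 12.3% and 4.87% of all genes. S100a9 had 8.26, 8.49 and 11.28 at 38 h, against 11.27, 9.76 and 10.74 at 24 h. A part of neutrophils in the chemokine values was not tested. Of 19 genes of the antioxidant response the enzyme Srxn1 fell by 1.94 ± 0.42 (adjusted p = 0.00858), and the score was 0.01, -0.39 and -0.06 at 38 h, against 0.05, 0.46 and -0.04 at 24 h. The acute phase genes Saa2 at 14.42, 14.63 and 14.05 at 38 h, against 14.22, 14.75 and 14.85 at 24 h and Lcn2 at 14.05, 14.34 and 14.45 at 38 h, against 14.58, 14.56 and 14.44 at 24 h did not pass.

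The junction gene Cdh1 and part of the cytoskeletal genes were below every 24 h array in all 3 arrays at 38 h. Cdh1 (E-cadherin, the junction protein of epithelial cells) had 7.28, 7.06 and 9.54 in the 38 h livers, against 9.96, 10.06 and 10.04 in the 24 h livers, so that every 38 h array lay below every 24 h array, and 38 h replicates 1 and 2 also lay below the untreated mean of 9.26. Its difference was -2.06 ± 0.58 (adjusted p = 0.699) with all arrays and -2.85 ± 0.45 (adjusted p = 0.00283) without 38 h replicate 3. The score of 23 cytoskeletal genes was 0.78, 0.57 and 1.14 at 38 h, against 1.26, 1.47 and 1.52 at 24 h, and 8 of them lay below in all arrays, beside 4.87% of all genes. Keratin 8, Krt8 (-1.30 ± 0.36, adjusted p = 0.0314), the membrane-binding annexin Anxa5 (-1.29 ± 0.39, adjusted p = 0.0465) and S100a10, a partner of annexin A2 (-0.85 ± 0.25, adjusted p = 0.0391), fell, 3 of 23 where 4.79% of all genes fell, and Anxa5 and S100a10 did not pass without both close arrays. Actb, at 14.07, 13.51 and 13.98 at 38 h, against 14.10, 14.40 and 14.26 at 24 h, did not pass (-0.46 ± 0.21, adjusted p = 0.197). Sox9, a marker of bile duct cells and of hepatocytes that take on duct traits, had 7.21, 7.10 and 8.34 at 38 h, against 8.46, 9.07 and 8.43 at 24 h and fell by 1.499 ± 0.29 (adjusted p = 0.00569), the only one of 10 measured duct markers to pass. The other genes lower in all 3 arrays at 38 h with the largest differences were Serpinb6b, Chil3, Otud1, Tnfaip3, F13a1, Tcim, Cd44, Gprin3 and Ccl2. They include the macrophage product Chil3 (-1.79 ± 0.75), the NF-kappaB inhibitor Tnfaip3 (-1.57 ± 0.66), the hyaluronan receptor Cd44 (-1.46 ± 0.67) and the monocyte attractant Ccl2 (-1.35 ± 0.65), and none passed with all arrays.

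**Figure D4:**
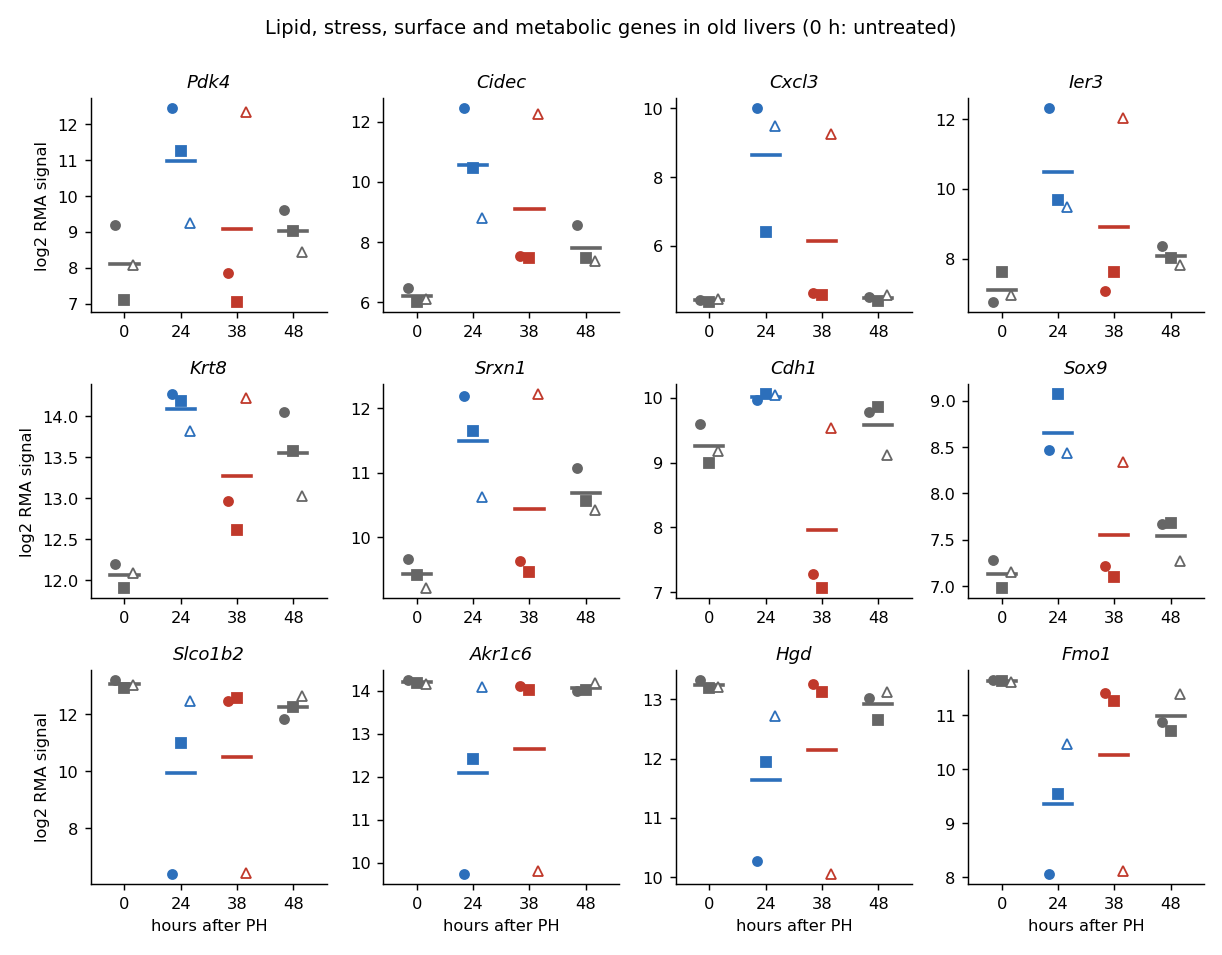
Log2 RMA signal of 12 lipid, stress, surface and metabolic genes in old livers at 0 h (untreated), 24 h, 38 h and 48 h after PH, 3 arrays per time with 1 symbol per replicate number and a bar at the group mean. 38 h replicate 3 (open triangle) and 24 h replicate 1 (circle) lie together at the top for Pdk4 and Cidec and at the bottom for Slco1b2, Akr1c6, Hgd and Fmo1.

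Few markers of other cell types passed without 38 h replicate 3, where 2.59% of all genes rose and 4.79% fell. The Kupffer cell and macrophage score was -0.61, -0.95 and -0.91 at 38 h, against -0.88, -0.47 and -0.22 at 24 h, with Cd14 alone of 16 markers falling (-3.32 ± 1.01, adjusted p = 0.0459). T and NK cell markers scored 0.12, 0.06 and 0.14 at 38 h, against -0.14, -0.17 and 0.05 at 24 h, and 6 of 11 were higher in all 3 arrays at 38 h, beside 12.3% of all genes, with 0 passing in either fit. Of 18 stellate cell and matrix markers 2 fell, both chains of basement membrane collagen: Col4a1 (-1.59 ± 0.40, adjusted p = 0.0175) and Col4a2 (-1.06 ± 0.31, adjusted p = 0.0396). Clec4g of sinusoidal endothelial cells, at 10.99, 11.09 and 8.04 at 38 h, against 8.27, 9.97 and 10.97 at 24 h, rose by 1.31 ± 0.32 (adjusted p = 0.017), the only one of 14 endothelial markers. Of B cell, adipocyte and mesothelial markers 0 passed, and of 9 erythroid markers Alas2, of haem synthesis, rose (0.92 ± 0.27, adjusted p = 0.0394). Without both close arrays Cd14, Col4a2, Clec4g and Alas2 did not pass.

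Subunits of the proteasome, which breaks down proteins, were high in the close arrays, with a score of 0.12, 0.03 and 0.60 at 38 h, against 0.68, 0.35 and 0.21 at 24 h. Of 31 subunits 8 fell, among them Psmd12 (-0.67 ± 0.15, adjusted p = 0.0115) and Psmc6 (-0.61 ± 0.15, adjusted p = 0.018), beside 4.79% of all genes. Without both close arrays 1 subunit fell, beside 2.42% of all genes. Genes of ribosome assembly gave 4 falls of 25, beside 4.79% of all genes, with nucleophosmin (Npm1) at -0.83 ± 0.19 and nucleolin (Ncl) at -0.82 ± 0.22. They gave 1 fall without both close arrays, beside 2.42% of all genes, and Ncl did not pass there. Cholesterol synthesis scored 0.15, 0.53 and -1.44 at 38 h, against -1.28, -0.53 and 0.37 at 24 h, and of its 19 genes only Ebp, a sterol isomerase, rose (0.90 ± 0.19, adjusted p = 0.00784). The fatty acid desaturases Fads1 and Fads2 rose by 1.17 ± 0.26 and 1.21 ± 0.28, 2 of 20 genes of fat synthesis, where 2.59% of all genes rose. Fads2 did not pass without both close arrays. Of genes of the interferon response (23), heat shock (15) and male-biased liver genes (11) 0 passed. Growth factors and receptors gave 2 rises and 3 falls of 30, where 2.59% of all genes rose and 4.79% fell. Without both close arrays they gave 0 and 3, where 1.56% of all genes rose and 2.42% fell. The falls without 38 h replicate 3 included Rspo3, a Wnt enhancer of the pericentral zone, at -0.94 ± 0.26, and Il6, at 4.65, 4.43 and 4.84 at 38 h, against 4.95, 5.07 and 5.27 at 24 h, at -0.55 ± 0.13. These Il6 levels are low, as the medians of the 6 arrays over all probe sets were 7.19 to 7.27. Whether they exceed background was not tested.

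Fat burning and fasting genes gave few calls without 38 h replicate 3, where 2.59% of all genes rose and 4.79% fell. Of 21 genes of fatty acid oxidation, Hadh (0.77 ± 0.18, adjusted p = 0.0121) and Acaa2 (0.58 ± 0.14, adjusted p = 0.014), enzymes of the oxidation cycle, rose, and Pdk4 and the thioesterase Acot2 (-0.99 ± 0.26, adjusted p = 0.0254) fell. Pyruvate carboxylase, Pcx (0.52 ± 0.16, adjusted p = 0.0472), was the only one of 19 glucose production genes to rise. Among 13 periportal genes the urea cycle enzyme Cps1 rose (0.64 ± 0.17, adjusted p = 0.0256) and Cdh1 fell, among 11 female-biased genes Cyp2b9 rose (1.85 ± 0.50, adjusted p = 0.026), and among 25 acute phase genes Crp rose (1.33 ± 0.39, adjusted p = 0.0372). Of 24 genes of ER and amino acid stress the pseudokinase Trib3 fell (-0.76 ± 0.22, adjusted p = 0.0383). Without both close arrays Hadh, Acaa2, Acot2, Pcx, Cps1, Crp and Trib3 did not pass. Igfbp1, an insulin-like growth factor binding protein of the injured liver, had 12.10, 12.30 and 13.87 in the 38 h livers, against 14.07, 13.99 and 13.55 in the 24 h livers, and the fetal liver protein Afp had 6.85, 6.90 and 7.38 at 38 h, against 7.71, 7.85 and 6.93 at 24 h. Both overlapped between the times, and neither passed (adjusted p = 0.291 and 0.146).

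Sham livers were taken at the same hours after surgery, without the loss of liver mass. The clock genes Dbp and Arntl, below, differed in opposite directions after PH and after sham surgery, though neither test of this passed. Whether subtracting the sham change removes a clock difference from the PH change was not tested. Between 38 h and 24 h after sham surgery, 2 of 34945 probe sets (0.00572%) passed, of Ppp1r1b (1.03 ± 0.13, adjusted p = 0.00134) and of the interferon-induced Herc6 (-1.33 ± 0.20, adjusted p = 0.00746). The test of the change after PH against that after sham surgery passed in 0 probe sets (0%), with 1649 at an unadjusted p under 0.05, and in 16 without 38 h replicate 3. Of 19 clock genes 0 passed in the PH comparison with or without 38 h replicate 3. Dbp, a clock output factor with a steep daily rhythm, had 8.91, 9.93 and 9.10 at 38 h and 9.31, 7.05 and 6.90 at 24 h after PH, against 6.55 and 7.29 at 38 h and 11.12 and 10.27 at 24 h after sham surgery. Arntl (Bmal1), the positive arm of the clock, had 8.56, 8.13 and 7.72 at 38 h and 8.20, 9.30 and 9.49 at 24 h after PH, against 9.44 and 9.40 at 38 h and 8.34 and 8.36 at 24 h after sham surgery. In both genes the sham livers of each time did not overlap, and the 38 h PH livers lay on the side of the 24 h sham livers. Of the 24 h PH livers, replicates 2 and 3 lay with the 38 h sham livers, and replicate 1 with the 38 h PH livers. The difference between 38 h and 24 h was 1.56 ± 1.06 after PH and -3.77 ± 0.78 after sham surgery for Dbp, and -0.85 ± 0.53 and 1.07 ± 0.39 for Arntl, and the differences of these differences did not pass (adjusted p = 0.985 and 0.985). Nr1d1 (Rev-erb alpha), a repressor of Arntl, had 9.31, 9.19 and 9.81 at 38 h and 9.59, 8.99 and 8.12 at 24 h after PH, against 8.98 and 9.37 at 38 h and 10.24 and 9.95 at 24 h after sham surgery. Npas2, an Arntl partner, had 6.99, 6.92 and 6.59 at 38 h and 6.48, 8.41 and 8.12 at 24 h after PH, against 7.69 and 8.21 at 38 h and 6.33 and 6.53 at 24 h after sham surgery. Npas2 was high only in 24 h PH replicates 2 and 3 and the 38 h sham livers, while Nr1d1 was lowest in 24 h PH replicate 3. Per2 overlapped throughout, with 8.09, 8.33 and 8.43 at 38 h, against 8.25, 8.06 and 7.89 at 24 h. Promoters of 17 clock genes held the E-box CACGTG in 6 of 22 windows (27.3%, beside 7.15% of all) and the D-box letters TTATGTAA or TTATGCAA in 2 (9.09%, beside 1.66%).

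**Figure D5:**
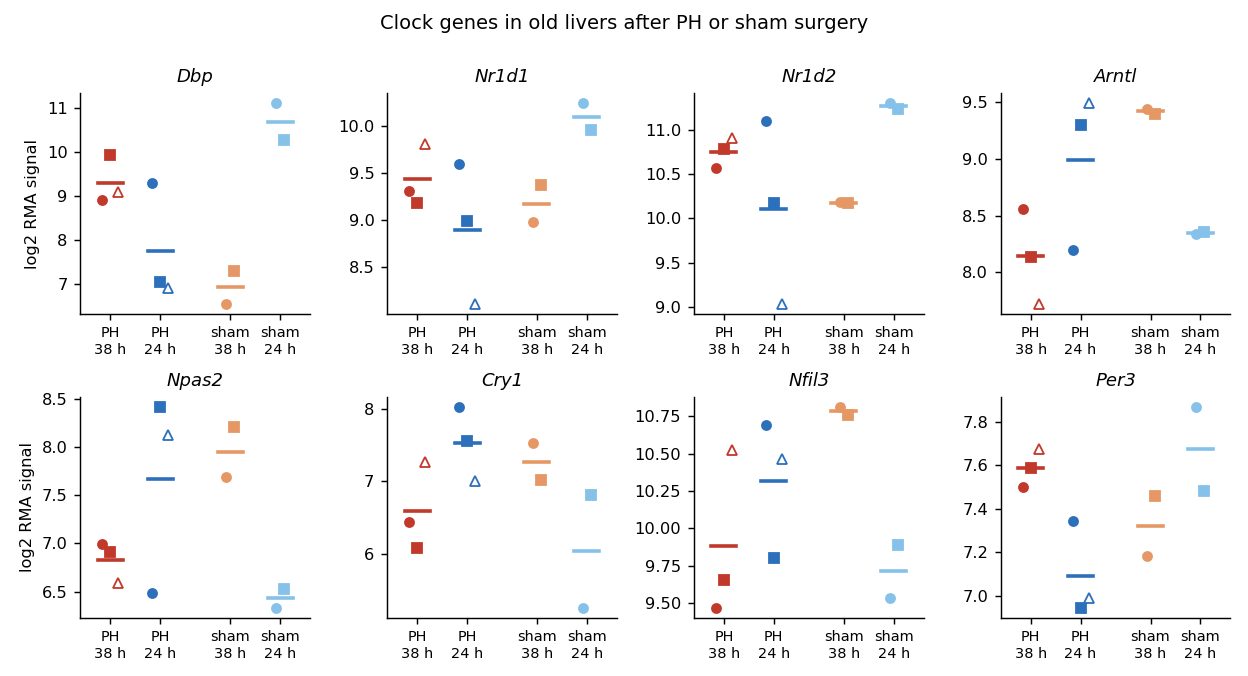
Log2 RMA signal of 8 clock genes in old livers 38 h and 24 h after PH (3 arrays each) and 38 h and 24 h after sham surgery (2 arrays each), with 1 symbol per replicate number and a bar at the group mean. Dbp is low at 38 h and high at 24 h after sham surgery, while the 38 h PH arrays lie between 8.91 and 9.93 and 24 h PH replicates 2 and 3 at 7.05 and 6.90.

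The change between the same times in young livers set the old change beside that of the other age. In young livers 634 genes (3.48%) rose and 465 (2.56%) fell at 38 h relative to 24 h. Of the mitotic list 39 and of the replication list 31 rose there, Birc5 by 3.41 ± 0.46 (adjusted p = 4.21e-05) and Mcm6 by 1.31 ± 0.37 (adjusted p = 0.0315). The mitotic score was 2.30 ± 0.59 at 38 h, against 0.54 ± 0.27 at 24 h (SD, n = 3 each). The test of the difference between the ages passed in 1 probe set with all arrays (0.00286%), of Haus8, and without 38 h replicate 3 in 284 genes higher (1.56%) and 469 lower (2.58%) in the old change than in the young one. By probe sets that count was 1228, and 421 without both close arrays. Without 38 h replicate 3 alone, 1 of the replication list and 0 of the mitotic list differed between the ages, and the replication gene was Mcm10. The array left out had the lowest 38 h score on both lists, so these counts do not show that the ages were alike. With all arrays the median difference between the ages was -0.80 over mitotic and -0.33 over replication genes, beside 0.05 over all genes. The differences between the ages of single genes that follow are again without 38 h replicate 3. None of them passed with all arrays, and gene values without both close arrays are not given. Cdkn1a differed by -3.19 ± 0.35 (adjusted p = 8.15e-05) between the old and the young change, with 1.55 ± 0.25 in young livers, and Myc differed by -1.83 ± 0.35 (adjusted p = 0.00863). Pdk4 differed by -4.98 ± 0.90 (adjusted p = 0.00698) and Cidec by -4.38 ± 1.11 (adjusted p = 0.0302), each with a positive difference in young livers (1.44 ± 0.62 and 1.32 ± 0.71). Of the amino acid list 9 genes were higher in the old change, Hgd by 1.93 ± 0.37 (adjusted p = 0.00878) and Hpd by 1.55 ± 0.28 (adjusted p = 0.00728). Cebpa, which had a difference of -0.68 ± 0.13 in young livers, differed by 1.41 ± 0.23 (adjusted p = 0.00441) and Slco1b2 by 3.18 ± 0.86 (adjusted p = 0.0387). Of the cytoskeletal list 5 were lower in the old change, Krt8 by -1.87 ± 0.44 (adjusted p = 0.0216).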

How the data were processed

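The deposited values are log2 signals of Affymetrix moe430_2 arrays, made by the authors with RMA, per the submitters' processing notes, from 5 µg total RNA per the labels' protocols. RMA makes the signal distributions of arrays alike, so a shift common to most genes would not show; its version is not given in the sources used here. Of 45101 probe sets, 34945 with 1 gene symbol in the platform annotation (which can be old) were tested, representing 18193 genes. A mean per group was fitted to all 35 arrays in 14 groups with limma 3.58.1 in R 4.3.3 (21 residual and 4.17 prior degrees of freedom), with variance factors for old PH 38 h, old PH 24 h and all other arrays (arrayWeights), and p-values were adjusted by Benjamini-Hochberg over all probe sets. ± is the SE of the fit unless SD is given, and adjusted p-values are limma's. The fit was tested on simulated data with independent noise, in which no array deviates as a whole from its group. That test therefore does not speak for the fit where arrays deviate as they do here. Probe sets of 1 gene can disagree, and 9010 genes have over 1. Named genes were the 10 largest differences each way without overlap (as under 5 passed), in each of 40 lists up to 5 passing members or else the 2 with the highest mean, a panel of 34, and genes passing against sham or young. The list rule was also applied to the fit without 38 h replicate 3, a step chosen after the values were seen, and some genes the rule picks appear only within list counts. Members and lists were chosen with earlier results of these data known. Of 836 list entries 765 were measured. Promoters are RefSeq windows of the GRCm38.p6 build, matched by symbol. Alternatives changed the weights, the arrays fitted, the unit, a filter on dim probe sets, the normalization, the variance prior, a replicate block and each array. Figures used matplotlib 3.10.9 in Python 3.11.15.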

Additional observations from a re-analysis of the deposited data

Results flagged for a closer look

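Haus8, a subunit of the augmin complex that branches spindle microtubules, was picked out because the test of the difference between old and young passed. Its log2 level was 7.98, 7.57 and 7.94 at 38 h and 8.04, 8.03 and 8.21 at 24 h in old PH livers, against 8.66, 8.74 and 8.67 at 38 h and 7.72, 7.64 and 7.27 at 24 h in young PH livers. The change from 24 h to 38 h was -0.26 ± 0.16 in old livers and 1.15 ± 0.10 in young livers, a difference of -1.41 ± 0.19 (adjusted p = 0.00195) in limma. All 3 young 38 h arrays lay above the young 24 h arrays, and all 3 old 38 h arrays lay below the old 24 h arrays. With 3 arrays a group, the call depended on single arrays. It was lost without old 38 h replicate 2, without old 24 h replicate 2, and with only the arrays of the contrast, where 0 probe sets passed.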

How the results depend on the processing

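The count of probe sets that changed between 38 h and 24 h in old PH livers was 915 with no array weights, 5 with 1 weight per array, 1465 without both close arrays, and 0 to 2435 with 1 array left out; the 2435 came without 38 h replicate 3, and all other settings gave 0. For the PH change against the sham change, 1 weight per array gave 1, leaving out both close arrays 24, and leaving out 1 array 0 to 16, with 16 without 38 h replicate 3, 1 and 12 without sham 38 h replicates 1 and 2, and 15 without sham 24 h replicate 1. For the sham change, the count of 2 became 0 with the 4 sham arrays alone, 11 with 1 probe set per gene, 25 without dim probe sets, 19 after repeated quantile normalization, 6 without both close arrays, and 28 to 107 with 1 sham array left out (93 and 31 without 38 h replicates 1 and 2, 28 and 107 without 24 h replicates 1 and 2), where the lone array left is assumed to vary like the others. For old against young, the count of 1 became 104 with no array weights, 55 with 1 weight per array, 0 with only the arrays of the contrast, 3 with 1 probe set per gene, 4 with arrays centred on their medians, 421 without both close arrays, and 0 to 1228 with 1 array left out, the 1228 without 38 h replicate 3, 0 without 38 h replicate 2 or 24 h replicate 2, 3 and 19 without 24 h replicates 3 and 1, and 41 without young 38 h replicate 3. Of 188 named genes, 102 passed without 38 h replicate 3, 58 without both close arrays and 17 with no array weights. Over all 18193 genes 1342, 723 and 453 passed in these settings. Many of the 188 were named because they passed without 38 h replicate 3, so the 102 is no independent check. No gene that passed in a setting had the opposite sign with all arrays, where 0 passed. Passing or not, the sign differed for 13 of the 188 without 38 h replicate 3, and for 30 without 24 h replicate 1. With the replicate number as a block, 0, 0, 3 and 1 probe sets passed in the 4 comparisons. The numbers did not pair the samples: deviations of same-numbered 38 h and 24 h arrays correlated at -0.7037, 0.3575 and -0.7572. The cause of these dependences was not tested, beyond the arrays left out in each setting. Arrays number 3 a group, which limits precision.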

Other observations

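Without 38 h replicate 3, 9 genes passed in the test of the PH change against the sham change: Stmn1, Mcm4 and Lect2 higher, and Pdk4, Cxcl3, Cdh1, Desi2, Ube2d1 and Pdcl3 lower. Stmn1, which destabilises microtubules, had 12.87, 11.13 and 8.85 at 38 h, against 9.01, 8.97 and 10.11 at 24 h, and the difference from sham was 3.29 ± 0.60 (adjusted p = 0.0313). Desi2 had 10.58, 10.26 and 11.51 at 38 h, against 11.66, 11.99 and 11.33 at 24 h, and differed by -1.66 ± 0.29 (adjusted p = 0.0262). For Pdk4 this difference was -5.48 ± 0.96 (adjusted p = 0.0262) and for Cdh1 -3.31 ± 0.58 (adjusted p = 0.0262). Sult1e1, which sulphates oestrogens, had 6.80, 6.89 and 12.78 at 38 h, against 13.03, 11.09 and 6.62 at 24 h, a fall of 3.41 ± 0.93 (adjusted p = 0.0275), and Plscr1, a phospholipid scramblase induced by interferon, had 8.64, 9.001 and 12.07 at 38 h, against 12.32, 11.94 and 10.97 at 24 h, a fall of 2.92 ± 0.50 (adjusted p = 0.00428). Among the largest rises, the transporter Abca8a had 11.28, 11.43 and 6.65 at 38 h, against 6.65, 8.27 and 10.98 at 24 h, a rise of 2.72 ± 0.66 (adjusted p = 0.0159). These genes were chosen after their values were seen.

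The 8 genes over 2-fold apart between 38 h replicate 3 and 24 h replicate 1 were 4833422C13Rik, Atp13a3, Atpif1, Caap1, Dbr1, Flvcr1, Hnrnpul2 and Tasor2, and all 8 were lower in 38 h replicate 3, by a log2 difference from -1.59 to -1.01. Whether these arrays carry the right time labels was not tested.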
